A study of Mus musculus with 6 samples.

Results

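The genes described here handle phosphate and pyrophosphate or remove phosphate groups: Acp5, Acp1 and Acp6, which encode acid phosphatases of 3 kinds, Slc20a1, Slc20a2 and Xpr1, which encode phosphate carriers of the cell membrane, and Enpp1 and Ank, which supply extracellular pyrophosphate. They were taken by symbol from the table of read counts, and all 8 were present among its 22601 genes and among the 13483 that passed the filter on low counts. Gene expression was measured by RNAseq, as sequenced fragments assigned to each gene, in 6 libraries of mouse cells on the C57BL/6N background. The 3 WT libraries (animals K090, L080 and L082) and the 3 Slc37a2 KO libraries (animals K089, L078 and L081) came, by the sample labels, from osteoclasts grown from bone marrow macrophages. All 6 were kept for 5 days with M-CSF at 2 ng/ml and RANKL at 10 ng/ml, and the column headings give an age of 11 weeks for every animal. The paper's methods for RNAseq instead describe RNA of whole femurs and tibias. The KO mice carry the Slc37a2tm2a(KOMP)Wtsi allele, a gene trap that came from a single embryonic stem cell clone and is present in every cell of the animal.

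Osteoclasts are the cells that dissolve bone mineral, which is made largely of calcium phosphate, and degrade its matrix. They secrete tartrate-resistant acid phosphatase (TRAP), the product of Acp5 and the classical histochemical marker of the cell. Extracellular pyrophosphate inhibits mineral growth: Enpp1 makes it from ATP outside the cell, Ank promotes the release of ATP and other anions from which it forms, and alkaline phosphatase breaks it down to phosphate, which Slc20a1 (PiT1) and Slc20a2 (PiT2) carry into cells with sodium and Xpr1 carries out. Slc37a2, the deleted gene, belongs to a family of sugar-phosphate and phosphate exchangers of internal membranes. The paper, however, holds that Slc37a2 is unlikely to carry glucose-6-phosphate in the endoplasmic reticulum. It proposes that Slc37a2 exports glucose and fructose from secretory lysosomes. The comparison asks whether genes that handle phosphate differ in RNA level when Slc37a2 is lost.

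The 3 sequences below lie just upstream of the RefSeq transcription starts (GRCm38.p6) of the genes that varied most across the libraries, Acp5 and Ank, whose levels ran in parallel, and Enpp1, which ran the other way. Each is written 5′ to 3′ along the gene's own strand, and the 10 bases nearest to the start are left off. Capitals mark TCACATG, an E-box form that factors of the MITF family are known to bind. The Ank and Enpp1 sequences hold no capitals because none of the searched motifs was in them.
Acp5, window 3, chr9:22130609-22130848, minus strand: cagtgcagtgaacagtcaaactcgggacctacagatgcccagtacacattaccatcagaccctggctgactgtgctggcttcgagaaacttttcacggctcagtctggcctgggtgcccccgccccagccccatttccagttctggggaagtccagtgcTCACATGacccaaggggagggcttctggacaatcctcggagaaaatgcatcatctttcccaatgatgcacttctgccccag
Ank, chr15:27466427-27466666, plus strand: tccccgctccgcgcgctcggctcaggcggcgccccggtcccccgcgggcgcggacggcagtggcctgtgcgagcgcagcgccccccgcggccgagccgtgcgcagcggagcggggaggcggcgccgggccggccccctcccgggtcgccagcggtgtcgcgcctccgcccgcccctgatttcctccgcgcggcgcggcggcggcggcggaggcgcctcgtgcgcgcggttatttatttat
Enpp1, chr10:24712170-24712409, minus strand: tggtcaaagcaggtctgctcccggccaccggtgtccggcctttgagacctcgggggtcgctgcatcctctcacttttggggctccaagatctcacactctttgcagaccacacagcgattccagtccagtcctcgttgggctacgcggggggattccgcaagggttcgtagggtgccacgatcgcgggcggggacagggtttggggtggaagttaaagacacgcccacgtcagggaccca
In windows of 250 bases before each start, 7 of the 8 genes were matched, with 10 windows in all, and Slc20a2 had no entry. TCACATG, searched on both strands, was in 1 of these 10 windows, beginning 91 bases before the start of window 3 of 3 for Acp5, against 3.50% of 32851 windows of all genes. CACGTG, a palindrome that does not overlap with TCACATG, was in 1 window, the first of Slc20a1, where it occurred at 175 and at 22 bases before the start, against 6.02% of all windows. TGANTCA, the AP-1 motif, was in 0 of the 10 windows, against 6.75% of all. The read counts are summed over all transcripts of a gene, so use of the 3 Acp5 starts could not be told apart. GC content was 54.4% in Acp5 window 3, 81.2% in that of Ank and 61.2% in that of Enpp1, beside a median of 52.4% over all windows.

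Library totals lay between 27552183 and 42522292 counts. Slc37a2, which checks the labels, fell from 2149 ± 292 CPM (counts scaled to CPM with TMM library factors; SD, n = 3) in WT to 38.1 ± 6.66 CPM (SD, n = 3) in KO libraries. It was the single gene called among those tested (0.00742%), where called means an adjusted p below 0.05 by edgeR's quasi-likelihood test (Benjamini-Hochberg) and an absolute log2 fold change over 1.5. The osteoclast markers were abundant in all 6 libraries, and stromal and bone-forming cell markers were present too. Col1a1 ran from 294.8 to 862 CPM, and the osteoblast regulators Runx2 and Sp7 from 10.6 to 16.5 CPM and from 1.48 to 2.70 CPM, while Bglap and Bglap2, markers of mature osteoblasts, had at most 1 count in any library. KO library L078 stood apart from the other 2 KO libraries: its osteoclast markers summed to 36634 CPM against 52475 and 57867, and its stromal markers to 1888 CPM against 613 and 655. It did not stand apart from WT, since WT library K090 had a lower osteoclast sum, at 33053 CPM. In chi-square over degrees of freedom, L078 differed by 20.9 from WT library L080 and by 27.6 from K090. From KO libraries L081 and K089 it differed by 97.5 and 123. Estimates and correlations of the 8 genes that rest on L078, the median estimates of the gene lists and the genes that follow the same split are also given without L078, while K090 stays in WT. In such bulk RNA, fewer cells of a type and less RNA per cell cannot be told apart. The sample titles call the libraries biological replicates, and the column headings give each a different animal.

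None of the 8 genes was called between genotypes. Of the 8, 5 had a higher and 3 a lower mean estimate in KO libraries, with a median log2 fold change of 0.06, beside a median of −0.02 over all tested genes. Their median absolute log2 fold change was 0.13, against 0.10 over all tested genes. At an unadjusted p below 0.05 in the same test there were 0 of the 8 genes and 96 of all tested genes (0.712%). In 0 of the 8 genes did every KO library lie above every WT library (1.5% of all tested genes), and in 1, Acp1, did every KO library lie below (2.81%). The smallest two-sided p that an exact permutation test of 3 libraries against 3 can give is 0.1.

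**Figure D1:**
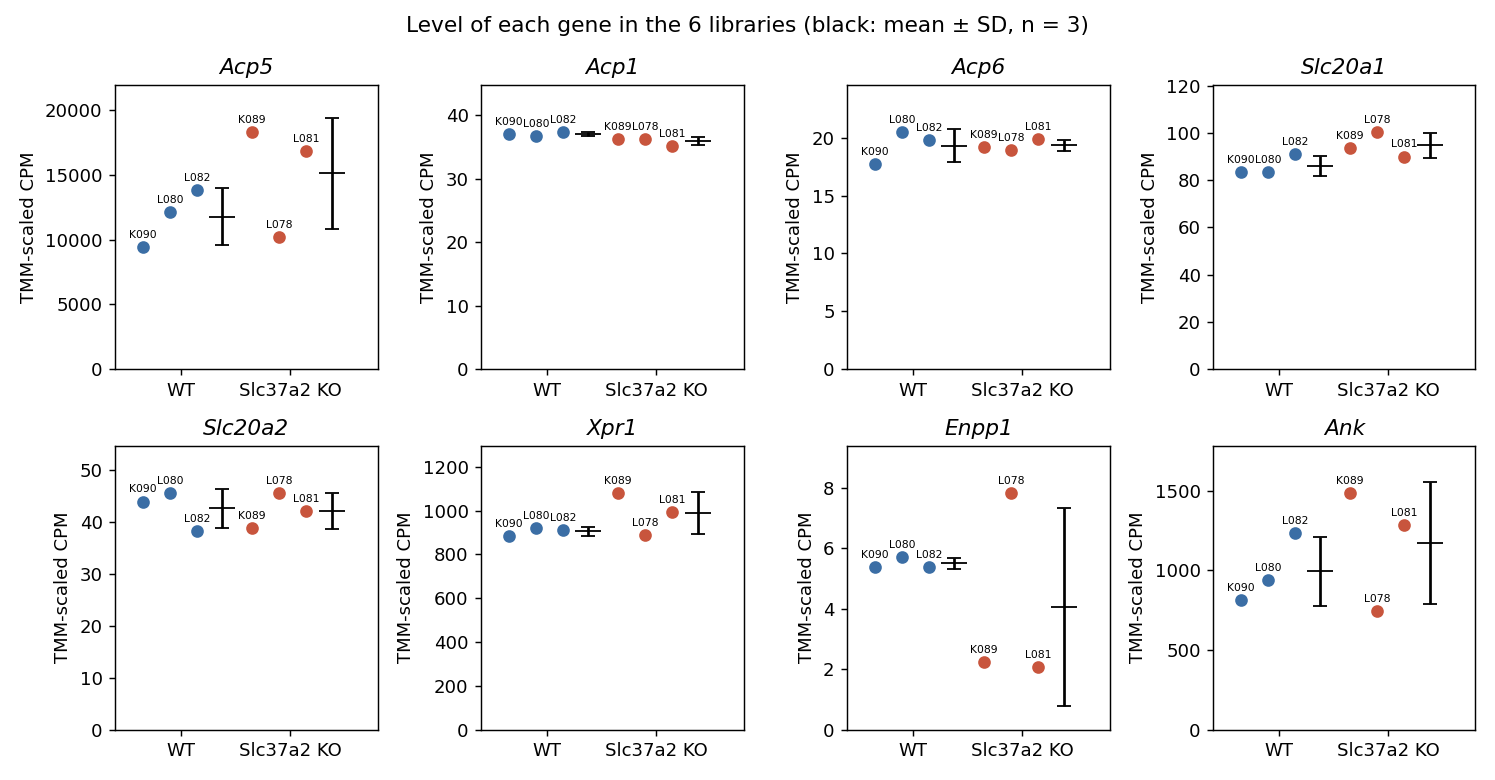
Level of each gene in TMM-scaled CPM (vertical axes, each from 0) in the 3 WT and 3 Slc37a2 KO libraries, 1 point per library, with the mean ± SD in black. The KO points of Ank and Enpp1 lie on both sides of the WT points, with L078 at 743 and 7.83 CPM, and those of Acp5 lie above them except L078 (10225 CPM), which is within the WT range.

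Among the phosphatases, Acp5 was by far the most abundant and the most variable. It had 9419, 12099 and 13809 CPM in WT libraries K090, L080 and L082, and 18299, 10225 and 16868 CPM in KO libraries K089, L078 and L081. K089 and L081 were above every WT library, and L078 was below L080 and L082, so the groups overlapped. The means were 11776 ± 2213 CPM in WT and 15130 ± 4308 CPM in KO libraries (SD, n = 3 each). The log2 fold change was 0.36 (SE 0.28, 95% interval −0.32 to 1.04), and the adjusted p was 0.969 by edgeR's quasi-likelihood test, after Benjamini-Hochberg. The difference between the means was larger than the SD of the WT libraries and smaller than that of the KO libraries. The interval allows a fall to 0.80 of the WT level or a rise to 2.06 times it. Acp5 ranked 2 among all genes by mean CPM and took from 0.979% to 1.703% of all counts in a library. It lies on chromosome 9 with Slc37a2, 15.1 Mb away (chr9:22126727-22135711, minus strand, mm10).

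Acp1, the cytosolic low molecular weight phosphotyrosine phosphatase, was the steadiest of the 8 after TMM scaling. It had 37.0, 36.7 and 37.3 CPM in WT and 36.3, 36.3 and 35.2 CPM in KO libraries. All 3 KO values were below all 3 WT values, but the log2 fold change was −0.04 (SE 0.05, 95% interval −0.17 to 0.09; adjusted p = 0.969 by edgeR's quasi-likelihood test, after Benjamini-Hochberg). The exact permutation test of TMM-scaled CPM gave a two-sided p of 0.1, its smallest possible value. The spread of TMM-scaled levels within genotypes on the log2 scale was at percentile 0.208 of all tested genes. Before TMM scaling the groups overlapped, with 38.5, 37.7 and 37.0 CPM in WT libraries K090, L080 and L082. KO libraries K089, L078 and L081 then had 33.7, 38.5 and 33.6 CPM. Of its merged exons, 14.6% (529 bases) overlap exons of Alkal2 on the opposite strand, a gene not among the rows used here, and whether counting used the strand is not given in the sources used here.

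Acp6, a mitochondrial phosphatase of lysophosphatidic acid, had 17.7, 20.5 and 19.8 CPM in WT and 19.2, 19.0 and 19.9 CPM in KO libraries. The KO values lay inside the WT range, and the log2 fold change was 0.00 (SE 0.09, 95% interval −0.21 to 0.21). For both Acp1 and Acp6 the interval excludes a change by 0.5 or more on the log2 scale in either direction.

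Of the carriers, Xpr1, the only known phosphate exporter of mammalian cells, was the most abundant. It had 883, 921 and 913 CPM in WT and 1081, 890 and 992 CPM in KO libraries. K089 and L081 were above every WT library and L078 was within the WT range. For L081 this depended on TMM scaling. Before it, L081 had 945.9 CPM, below WT library L080 at 946.4 CPM, and L078 had 942.8 CPM. The log2 fold change was 0.12 (SE 0.10, 95% interval −0.11 to 0.36).

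The importer gene Slc20a1 had 83.4, 83.6 and 91.2 CPM in WT and 93.9, 100.4 and 90.1 CPM in KO libraries. The groups overlapped through WT library L082, which was above KO library L081. The log2 fold change was 0.14 (SE 0.07, 95% interval −0.03 to 0.30), with an unadjusted p of 0.0846, the lowest of the 8, and 0.969 as the adjusted p by edgeR's quasi-likelihood test, after Benjamini-Hochberg. Without WT library L082 the log2 fold change was 0.21, with an adjusted p of 0.825 in the same test. The related importer gene Slc20a2 had 43.9, 45.5 and 38.3 CPM in WT and 38.7, 45.5 and 42.0 CPM in KO libraries, with a log2 fold change of −0.02 (SE 0.09, 95% interval −0.24 to 0.21). Its sign turned under another scaling of the libraries, where the log2 fold change was 0.00184. The ratio of Slc20a1 to Slc20a2 counts was 1.84 to 2.38 in WT and 2.15 to 2.43 in KO libraries, which overlapped.

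The 2 genes of pyrophosphate supply were split among the KO libraries in opposite directions. Enpp1, the ectoenzyme that makes pyrophosphate, had 5.39, 5.72 and 5.39 CPM in WT libraries and 2.24, 7.83 and 2.09 CPM in KO libraries. K089 and L081 were below every WT library and L078 was above every one. The coefficient of variation was 3.49% in WT and 80.8% in KO libraries. The log2 fold change was −0.42 (SE 0.52, 95% interval −1.69 to 0.84), and the adjusted p was 0.969 by edgeR's quasi-likelihood test, after Benjamini-Hochberg. These levels rest on 220, 162 and 168 counts in WT and 61, 353 and 59 counts in KO libraries. Before TMM scaling, the 59 counts of L081 stand for 1.99 CPM (95% exact Clopper-Pearson interval 1.51 to 2.57) and the 353 counts of L078 for 8.30 CPM (7.46 to 9.21). The gap between these KO libraries was thus larger than counting error. Enpp1 was the one gene of the 8 whose interval reached beyond 1.5 on the log2 scale. The intervals of 7 of the 8 genes stayed within that limit, as did those of 90.8% of all genes with an interval. Within 0.5 on the same scale they were 5 of 8, beside 55.3% of all genes.

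Ank, the membrane protein whose loss causes ectopic mineral and ankylosis in mice, had 812, 940 and 1234 CPM in WT and 1485, 743 and 1285 CPM in KO libraries. L078 was the lowest of all 6 libraries and the other 2 KO libraries were the highest. The log2 fold change was 0.23 (SE 0.28, 95% interval −0.45 to 0.92). The ratio of Acp5 to Ank counts was held between 11.2 and 12.9 in WT and between 12.3 and 13.8 in KO libraries, whereas that of Ank to Enpp1 ran from 94.8 in L078 to 663 in K089.

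**Figure D2:**
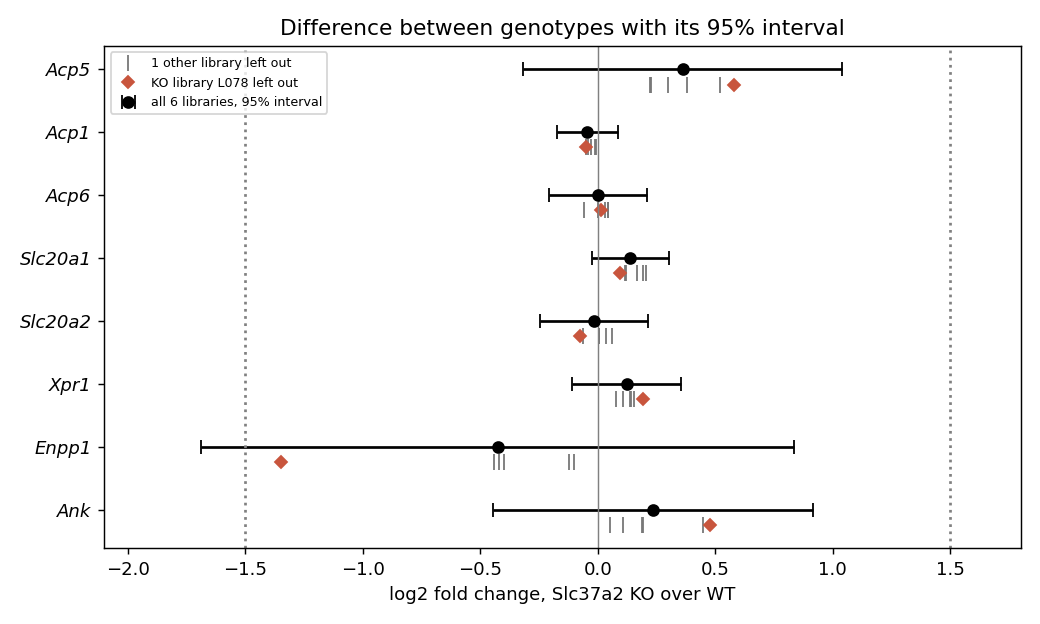
Log2 fold change of each gene, Slc37a2 KO over WT (horizontal axis), with its 95% interval from all 6 libraries (black) and the estimate after leaving out 1 library (ticks, and diamonds for KO library L078); dotted lines mark 1.5 in each direction. Every interval includes 0, and the diamond of Enpp1 lies at −1.35.

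The estimates of Enpp1, Acp5, Ank and Xpr1 moved furthest when KO library L078 was left out. Enpp1 then had a log2 fold change of −1.35 (95% interval −1.73 to −0.96), and its adjusted p was 0.174 by edgeR's quasi-likelihood test, after Benjamini-Hochberg. Acp5 moved to 0.58 (adjusted p = 0.227 by the same edgeR test), Ank to 0.48 (adjusted p = 0.241) and Xpr1 to 0.19 (adjusted p = 0.24). These 4 of the 8 genes were below an unadjusted p of 0.05 without L078, and so were 2732 of 13585 genes (20.1%). No gene besides Slc37a2 passed the adjusted threshold there. Leaving out KO library K089 took Ank to 0.05 and Enpp1 to −0.12, and leaving out KO library L081 took Enpp1 to −0.10. Leaving out WT library K090 took Acp5 to 0.22 and Ank to 0.11. Without WT library L082, Acp5 rose to 0.52 and Ank to 0.45, nearly as far as without L078. The animal numbers open with the letter K in 2 libraries, K090 of WT and K089 of KO, and with L in the rest, and what the letter stands for is not stated. Between the K libraries the log2 difference of TMM-scaled CPM, KO over WT, was 0.96 for Acp5, 0.87 for Ank and −1.27 for Enpp1. Among the L libraries it was 0.02, −0.14 and −0.46, so the higher mean of Ank in KO libraries did not hold there.

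Levels were compared between genes per kilobase of merged exons, since longer genes collect more reads. On this scale the order from highest to lowest, as the mean over 6 libraries, was Acp5 (6627 CPM per kb), Ank (300.0), Xpr1 (52.9), Slc20a1 (16.2), Acp1 (10.0), Slc20a2 (6.81), Acp6 (2.28) and Enpp1 (0.466). Each gene was above the next in every library, and no range over the 6 libraries overlapped with that of a neighbour in the order. Acp5 was 22.1 times Ank, and the closest neighbours, Acp1 and Slc20a2, differed by 1.48 times. The exon lengths, from 2030 bases for Acp5 to 17880 for Xpr1, join all annotated transcripts, so a gene whose osteoclast transcript is short is placed too low.

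**Figure D3:**
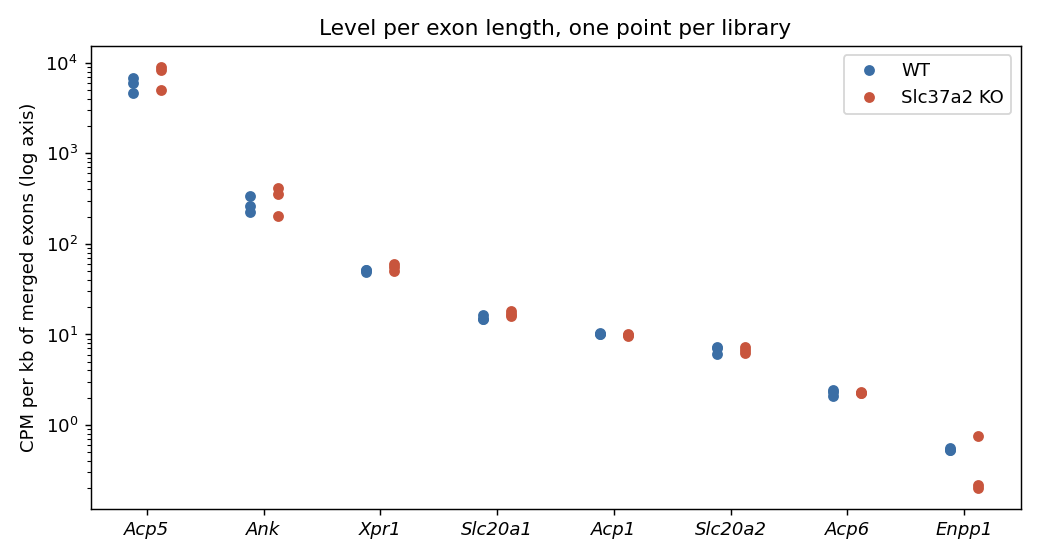
Level per kilobase of merged exons (vertical log axis, TMM-scaled CPM per kb) of the 8 genes in each WT (blue) and Slc37a2 KO (red) library. The genes keep the same order in all 6 libraries, from a mean of 6627 for Acp5 to 0.466 for Enpp1.

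Libraries of 1 genotype differed in the levels of several of the 8 genes, and these differences ran together for some genes and apart for others. Over the 6 libraries, described without a test, Acp5 had a Pearson correlation of log2 levels of 0.96 with Ank and 0.91 with Xpr1, and Xpr1 of 0.85 with Ank. Enpp1 ran against all of them, at −0.87 with Acp5, −0.89 with Xpr1 and −0.84 with Ank. Slc20a2 correlated with Ank at −0.85 and with Slc20a1 at −0.19. Over the 5 libraries without L078, chosen after seeing the data, these values were 0.97, 0.90 and 0.84 among Acp5, Ank and Xpr1, and −0.84, −0.88 and −0.76 for Enpp1 with Acp5, Xpr1 and Ank. Slc20a2 then stood at −0.80 with Ank and at −0.91 with Slc20a1, so the last of these depended on whether L078 was included. All of these rest on the same 6 libraries and their shared makeup.

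Markers of the cell types in the culture moved with some of these genes. Slc20a1 had r from −0.34 to 0.31 with the osteoclast, macrophage, stromal and interferon-response sums given below. Acp1 and Acp6 reached at most 0.55 and 0.60 in size. The 12 osteoclast markers, which leave out Acp5, all had higher mean estimates in KO libraries (median log2 fold change 0.28, or 0.46 without L078), with 0 called, and summed to 33053 to 47405 CPM in WT and 36634 to 57867 CPM in KO libraries. Acp5 followed that sum closely (r = 0.99), and the 6 libraries had the same order from highest to lowest in both, K089, L081, L082, L080, L078 and K090. Mmp9 and Ctsk together made up 78.8% to 82.5% of the sum. Against the other 10 markers summed Acp5 had r = 0.996, but it did not follow every marker, with r of −0.18 for Calcr, −0.45 for Nfatc1, 0.35 for Car2 and 0.44 for Ocstamp, before TMM scaling. Relative to the sum, Acp5 was 28.9% to 29.6% in WT and 29.4% to 30.7% in KO libraries, so its 1.74-fold range between libraries before TMM scaling became 1.06-fold. That narrow range rests mostly on Mmp9 and Ctsk. Over the other 10 markers summed, Acp5 was 1.40, 1.56 and 1.56 in K090, L080 and L082. In KO libraries K089, L078 and L081 it was 1.68, 1.49 and 1.66, so K089 and L081 were above every WT library. Ank was 2.24% to 2.58% of the sum of all 12 markers in WT and 2.15% to 2.39% in KO libraries, a range of 1.2-fold in place of 1.76-fold. The TMM-scaled level of Xpr1 correlated with the same sum (r = 0.89). Xpr1 did not scale in proportion to it, since its range of 1.11-fold before TMM scaling became 1.60-fold.

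Enpp1 correlated with the sum of the 12 osteoblast and stromal markers (r = 0.90, and 0.85 without L078). The sum ran from 846 to 1541 CPM in WT and from 613 to 1888 CPM in KO libraries. Col1a1 and Col1a2 together made up 83.29% to 87.55% of it, so these values rest mostly on the collagen genes. Of these 12, 9 passed the filter, all 9 had lower mean estimates in KO libraries (median −0.19, or −0.80 without L078) and 0 were called. The WT libraries did not show the relation, since the sum was 846, 1259 and 1541 CPM in K090, L080 and L082 while Enpp1 was at 5.39, 5.72 and 5.39 CPM. Relative to the sum, Enpp1 was 0.347% to 0.663% in WT and 0.318% to 0.44% in KO libraries, a range of 2.09-fold in place of 4.17-fold before TMM scaling. Of the 12, Bglap, Bglap2 and Lum were at or near 0, and the other 9, Col1a1, Col1a2, Postn, Runx2, Sp7, Alpl, Cxcl12, Dcn and Ibsp, were detected in all 6 libraries. Slc20a2 went with the sum of the 8 macrophage markers (r = 0.89), which was 1987 to 2403 CPM in WT and 2039 to 2331 CPM in KO libraries. Of the 8, 7 had lower estimates in KO libraries (median of the 8 −0.46, or −1.65 without L078). The exception, Csf1r (log2 fold change 0.08), made up most of the sum in every library. Before TMM scaling it was 1827 of 2386 CPM in K090 and 1951 of 2061 CPM in K089. The other 7 varied more between libraries, such as Adgre1, at 324 CPM in K090 and 59.9 CPM in K089 before TMM scaling. The correlation of Slc20a2 with the sum without Csf1r was not tested. The 10 interferon-response genes were all lower in estimate in KO libraries (median −0.92, or −2.11 without L078, 0 called). Their sum ran from 18.3 to 150 CPM in WT and from 11.6 to 90.1 CPM in KO libraries. It correlated with Acp5 at −0.93 and with Slc20a2 at 0.88. The neutrophil markers were near 0, at most 1.40 CPM in sum. The part of these cells in the levels of the 8 genes was not tested.

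**Figure D4:**
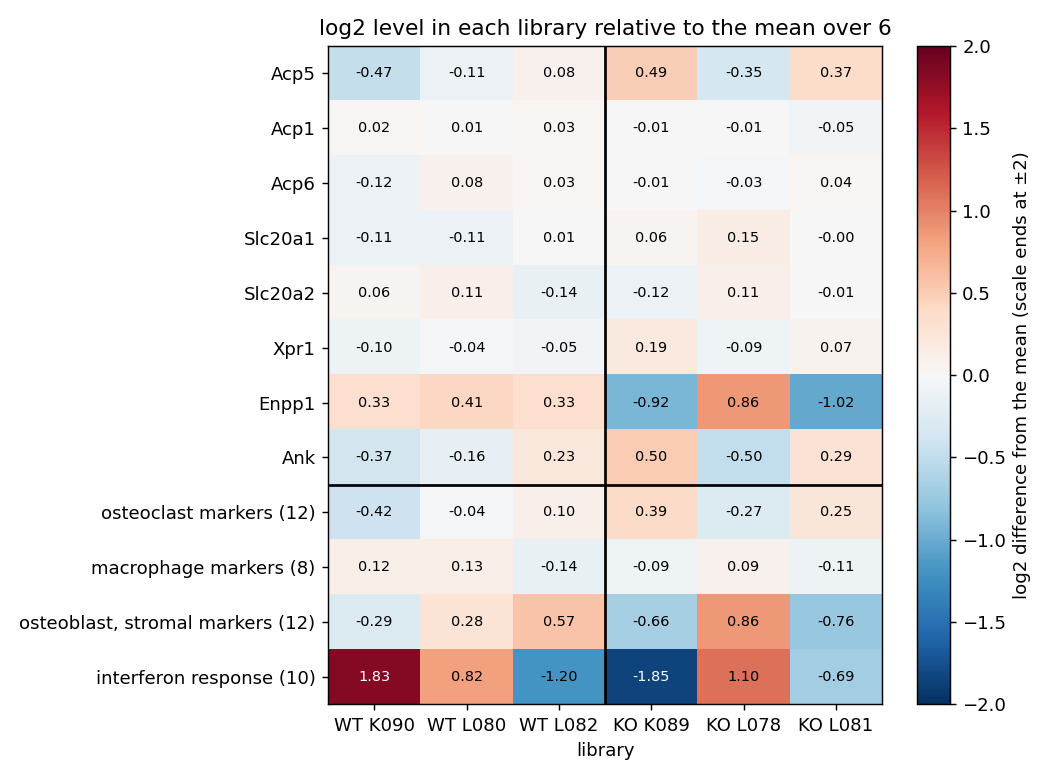
Log2 level of the 8 genes (TMM-scaled CPM, top) and of the summed unscaled CPM of 4 marker lists (bottom) in each library, as the difference from the mean over the 6 libraries; red is higher and blue lower, and the number of genes in each list is in parentheses. Acp5 and Ank share the pattern of the osteoclast markers, and Enpp1 is high in L078 and low in K089 and L081.

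The genes with the most similar pattern over the 6 libraries were named by the highest Pearson r of log2 CPM among all tested genes. For Acp5 they were Tcirg1, Atp6v1e1 and Stk17b, with r from 0.997 to 0.998. Ank was followed by Sema3c, Efr3b and Hectd4 (r = 0.998 each), and Enpp1 by Ipo9, Txndc5 and Plpp3 (r from 0.996 to 0.997). Xpr1 had Nav1, Acot11 and Acer2 (r from 0.991 to 0.992), and Slc20a2 had Clec4a4, Rab27a and Pih1d1 (r from 0.992 to 0.994). The nearest genes were Slc22a4, Itga2 and Mex3d for Slc20a1 (r from 0.938 to 0.987), Xylt1, Zfp286 and Exog for Acp1 (r from 0.972 to 0.991), and Zfpl1, Zfp777 and Tia1 for Acp6 (r from 0.968 to 0.977). With 6 points and 13483 genes, high values of r arise easily, and these names are a description of the libraries.

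The rest of the pathway gave no calls either. Without L078 the medians of the lists described next were −0.27 for phosphatases, 0.03 for pyrophosphate turnover, 0.01 for inositol pyrophosphates, 0.26 for the TRAP proteases and substrates, 0.26 for lysophosphatidic acid and −0.59 for the hormone axis, again with 0 genes called. L078 was chosen after seeing the data, and medians without any other library are not given here. Without KO library K089 instead, the estimates of Enpp1 and Ank shrank to −0.12 and 0.05. Among other acid and alkaline phosphatases, 5 of 11 listed genes were tested, 2 with higher and 3 with lower estimates (median −0.12). Acp2, the lysosomal acid phosphatase, had 159.8, 146.1 and 108.2 CPM in WT and 112.8, 151.4 and 116.9 CPM in KO libraries. Phospho1, a phosphatase that starts mineral formation in matrix vesicles, had 54.0, 44.3 and 99.3 CPM in WT and 107.6, 48.9 and 94.0 CPM in KO libraries (log2 fold change 0.34, SE 0.39). Both were split between libraries rather than between genotypes. Alpl, the tissue-nonspecific alkaline phosphatase that degrades pyrophosphate, had 3.38, 5.79 and 7.48 CPM in WT and 3.16, 5.44 and 2.62 CPM in KO libraries (log2 fold change −0.56, SE 0.39). Pxylp1 had an estimate of −0.34 (SE 0.39).

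Of other phosphate carriers, the mitochondrial carrier Slc25a3 was the single gene tested, with 673 to 737 CPM in WT and 611 to 867 CPM in KO libraries (log2 fold change 0.14, SE 0.15). The kidney and gut carriers Slc34a1, Slc34a2, Slc17a2 and Slc17a4 had at most 1 count in any library.

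Of the 10 genes of pyrophosphate and nucleotide turnover, 8 were tested, 4 with higher and 4 with lower estimates (median −0.02). The inorganic pyrophosphatases Ppa1 and Ppa2 had log2 fold changes of −0.04 (SE 0.12) and 0.13 (SE 0.10), and the phosphatase Lhpp 0.00 (SE 0.08). Enpp2, or autotaxin, an Enpp1 relative that makes lysophosphatidic acid, had 1.13, 1.52 and 1.86 CPM in WT and 2.57, 2.04 and 2.23 CPM in KO libraries. All 3 KO values lay above all 3 WT values, at levels near 2 CPM. Its log2 fold change was 0.60 (SE 0.24), with an unadjusted p of 0.0471 and 0.969 as the adjusted p by edgeR's quasi-likelihood test, after Benjamini-Hochberg. Entpd1, which removes phosphates from extracellular ATP, ran from 1.76 to 9.96 CPM over the 6 libraries (log2 fold change −0.49, SE 0.70).

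Of the 8 genes of inositol pyrophosphates, the signalling molecules that bind Xpr1, and its partner Kidins220, all were tested, 5 with higher and 3 with lower estimates (median 0.01). Kidins220, the most abundant, had 891, 953 and 1202 CPM in WT and 1528, 889.5 and 1385 CPM in KO libraries (log2 fold change 0.32, SE 0.23). The kinase genes Ppip5k2 and Ip6k2 had 0.01 (SE 0.10) and −0.14 (SE 0.11), and the hydrolase gene Nudt3 0.09 (SE 0.08).

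For TRAP itself, 5 genes of its activating proteases and substrates were tested, 3 with higher and 2 with lower estimates (median 0.16). Ctsk, the cathepsin that degrades bone collagen and cleaves TRAP to its active form, had a log2 fold change of 0.45 (SE 0.36). Spp1, osteopontin, a phosphoprotein that TRAP dephosphorylates, had 2149, 2666 and 3163 CPM in WT and 4412, 2428 and 4354 CPM in KO libraries (log2 fold change 0.49, SE 0.27). The 2 higher KO libraries of Spp1 were K089 and L081, as for Acp5, and L078 lay within the WT range. Ctsb had an estimate of 0.16 (SE 0.15).

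The 5 genes that make or degrade lysophosphatidic acid, the substrate of Acp6, included 4 with higher estimates (median 0.14). Plpp3 was the exception, with 5.42, 5.48 and 5.36 CPM in WT and 2.28, 7.41 and 2.44 CPM in KO libraries (log2 fold change −0.41, SE 0.47), close to the values of Enpp1 in every library. Plpp1, Plpp2 and the kinase gene Agk had 0.15 (SE 0.15), 0.12 (SE 0.10) and 0.14 (SE 0.13). Without L078, the log2 fold changes were −1.20 for Plpp3 (adjusted p = 0.211 by edgeR's quasi-likelihood test), 0.72 for Spp1, 0.72 for Ctsk, 0.52 for Kidins220, 0.61 for Phospho1, −0.94 for Alpl and −1.46 for Entpd1. No gene of any list passed the adjusted threshold there. In the hormone axis of phosphate, 4 of 8 listed genes were tested and the median was −0.24, with Fgfr1 at 0.05 (SE 0.13), Pth1r at −0.50 (SE 0.55) and Phex at −0.53 (SE 0.30).

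**Figure D5:**
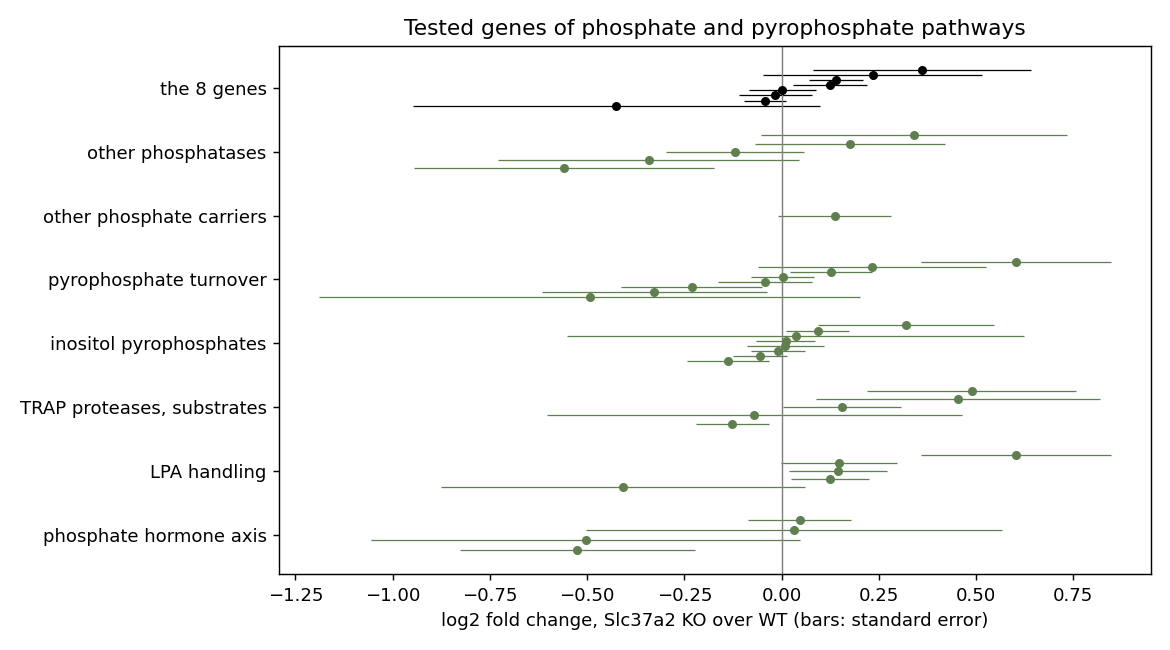
Log2 fold change of each tested gene, Slc37a2 KO over WT (horizontal axis), by pathway list (rows), with bars of 1 standard error; the 8 genes are black. No gene was called, the tested genes lie on both sides of 0 in 7 of the 8 rows, and Enpp2 (0.60) is the highest of the estimates.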

How the data were processed

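The authors deposited whole-number read counts of 22601 genes for 6 libraries, not normalized, beside their own edgeR comparison (log2 fold change, mean log2 CPM, likelihood ratio, p-value and FDR), which was not used. Per the submitters' processing notes, mm10, bcl2fastq 2.20.0.422 and edgeR 3.30.3 were used; the tools for alignment and counting, and the annotation, were not given in the sources used here. Genotype of each column was read from its heading; 0 columns were of other samples. Columns carry no replicate number, so libraries are named by animal.

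The analysis of counts was run in R 4.3.3, using edgeR 4.0.16 (filterByExpr defaults, TMM, glmQLFit and glmQLFTest, Benjamini-Hochberg over 13483 genes), with limma 3.58.1 and DESeq2 1.42.0 for alternatives, and the scripts were tested on simulated counts. Totals ran from 27552183 to 42522292 counts, and the biological coefficient of variation was 20.8%. CPM is TMM-scaled, except in marker sums, in percentages of those sums, in counting intervals and where the text says before TMM scaling. Intervals are 95%, and those from counts cover counting error only, since reads are not independent molecules. Correlations used log2 CPM with a prior count of 2 for gene levels over all libraries. Marker sums, correlations without L078 and those of Acp5 with single osteoclast markers had no such prior count. The same holds for Acp5 with the osteoclast sum that leaves out Mmp9 and Ctsk. The most similar 2 libraries, K089 and L081, differed by 7.22 in chi-square over its degrees of freedom, so none was counted as a duplicate. Gene positions and merged exon lengths are from GENCODE M21 (GRCm38, the sequence of mm10), and sequences from RefSeq (GRCm38.p6). Figures were drawn with Python 3.11.15 and matplotlib 3.10.9.

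The 8 genes and the 12 lists were chosen with earlier results of these data known. Named genes are the 8, Slc37a2, in each list up to 3 genes of highest mean CPM and up to 2 with the largest absolute log2 fold change, the 3 genes most correlated with each of the 8, and any gene called where these were 10 or fewer. Single marker genes such as Runx2, Sp7 and Nfatc1, and the kidney and gut carriers were named outside this rule, after their values were seen. Alternatives were DESeq2's size factors, upper quartile scaling, no filter, at least 1 CPM in 3 libraries, DESeq2's Wald test, the likelihood ratio test of edgeR, the heading letter as a term, no limit on the fold change, a prior count of 0.5 for correlations, and each library left out in turn. Correlations and gene list estimates without L078, and correlations of Acp5 with single osteoclast markers, were added after seeing the data.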

Additional observations from a re-analysis of the deposited data

How the results depend on the processing

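None of the 8 genes was called under any of the 13 alternative fits. Acp5, Slc20a1, Xpr1, Enpp1, Ank and Acp1 kept their direction in all 13. The log2 fold change of Slc20a2 turned to 0.00184 with DESeq2's size factors and to 0.00250 in DESeq2's Wald test, and that of Acp6 to −0.00496 without the filter. With each library left out in turn it ran from −0.077 to 0.062 for Slc20a2, from −0.057 to 0.045 for Acp6, from −1.35 to −0.10 for Enpp1, from 0.22 to 0.58 for Acp5, from 0.05 to 0.48 for Ank, from 0.10 to 0.21 for Slc20a1, from 0.08 to 0.19 for Xpr1, from −0.05 to −0.01 for Acp1 and from −5.94 to −5.69 for Slc37a2. The cause of these turns was not tested. The number of genes called was 2, Slc37a2 and En2, with no filter, in edgeR's likelihood ratio test and in DESeq2's Wald test. En2 had 0 counts in every WT library and 151, 169 and 177 counts in KO libraries K089, L078 and L081. Whether these are reads of the En2 gene itself was not tested. With a prior count of 0.5 the third most similar gene became Zfp385b for Ank and Zfp459 for Acp6. No paired analysis was possible because the columns of the table carry no replicate number that pairs libraries across genotypes. A term for the letter K or L in the headings could be fitted, and gave log2 fold changes of 0.36 for Acp5, 0.22 for Ank and −0.51 for Enpp1, with an adjusted p of 0.996 each by edgeR's quasi-likelihood test, and 1 gene called. Depth limits Enpp1 the most, with 59 counts at its lowest.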
